A study of Mus musculus with 8 samples.

Results

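Liver mRNA of 10 genes of hepatic stellate cells and fibrosis was followed across genotype and diet: the fibrillar collagens Col1a1, Col1a2 and Col3a1, the basement membrane collagens Col4a1 and Col4a2, the matrix regulators Timp1 and Lox, the cytoskeletal proteins Acta2 and Des, and the ligand Tgfb1. They were chosen by name, with earlier results of these data known, and all 10 were found by their Ensembl identifier among the 38283 genes of the table. The study deleted the nuclear receptor RORα in mouse liver and asked how the loss alters the response to a high-fat diet. RNA was sequenced from whole liver in 8 libraries, 2 for each of 4 groups, with liver from 2 mice pooled into every library. The f/f groups carried floxed Rora alleles without Cre, the LKO groups carried the same alleles with Cre under the albumin promoter, and exons 4 to 5 lay between the loxP sites. All mice were male C57BL/6, 8 weeks old at the start, and ate either a control diet (CD) or a high-fat diet with 60% of energy from fat (HFD) for 10 weeks. The albumin promoter drives Cre in hepatocytes, so that stellate cells of LKO mice keep an intact Rora gene. No group received a fibrogenic agent.

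Both type IV collagen genes were lower in all 4 HFD libraries than in all 4 CD libraries, 1.43-fold for Col4a2 and 1.33-fold for Col4a1. Of all tested genes, 16.5% separated by diet in this way in either direction. Both collagens were called by the test over all genes, but neither call held without the filter on low values, and both depended on the libraries used. On HFD, the 2 LKO-labelled libraries lay outside the range of the 2 f/f-labelled ones for each of the 8 genes that could be tested: Col1a1, Col1a2, Col3a1, Col4a1, Col4a2 and Tgfb1 were higher and Acta2 and Des lower. None of these genotype differences passed the test over all genes, and 42.1% of all tested genes separated in the same way. Acta2 and Des passed the filter on low values partly or wholly through f/f-labelled HFD libraries, where they were higher. Timp1 and Lox were near the limit of detection.

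Hepatic stellate cells lie between hepatocytes and the sinusoidal endothelium and store vitamin A in lipid droplets. On injury they can become myofibroblasts, which make type I and III collagen, express smooth muscle actin and inhibit matrix breakdown through Timp1, with TGF-β1 as a main activating signal. Type IV collagen forms the network of basement membranes and is made in liver by endothelial, stellate and smooth muscle cells. In whole liver RNA, fewer cells of a type and less RNA per cell cannot be told apart.

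Values are the deposited FPKM, which count fragments relative to transcript length and library size. Tests used log2(FPKM + 1), quantile normalized, in 1 limma fit over the 8 libraries with Benjamini-Hochberg adjustment over 11634 genes above 1 FPKM in at least 1 library. A log2 fold change on this scale understates the change of a low gene. Rora, the targeted gene, was at 8.85 and 8.59 FPKM in the f/f CD libraries, 7.96 and 8.18 in LKO CD, 7.56 and 7.86 in f/f HFD and 7.30 and 8.02 in LKO HFD. A whole-gene value also counts exons outside the deleted part, and the HFD libraries overlapped, so that Rora did not separate the genotype labels on HFD and the libraries are called LKO-labelled and f/f-labelled in that sense. In assays other than this sequencing, the study reported strong depletion of RORα mRNA and protein in liver and primary hepatocytes of LKO mice. The number of genes above 1 FPKM was 10587 to 10706 per library. The second f/f CD library stood apart, with 43.7% of its summed FPKM in 10 genes against 29.7% to 38.0% in the others. Albumin was listed at 0 in 4 libraries, so that an exact 0 in this table can be a failed estimate.

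Most of the 10 genes were low in these livers. By mean FPKM over the 8 libraries, a scale that is per length, the order was Col4a2 (4.02 ± 0.880, SD, n = 8), Col4a1 (3.54 ± 0.683), Col3a1 (2.08 ± 0.563), Tgfb1 (1.95 ± 0.522), Col1a2 (1.45 ± 0.329), Acta2 (0.933 ± 0.392), Col1a1 (0.829 ± 0.209), Des (0.777 ± 0.178), Lox at 0.0700 and Timp1 at 0.0669. Neighbours in this order differed by less than the sum of their SDs, except for the steps from Col4a1 to Col3a1 and from Des to Lox. Among the tested genes, Col4a2 stood at the 36.4th percentile of mean FPKM and Des at the 3.99th. The genes Col4a1, Col4a2, Col3a1, Col1a2 and Tgfb1, were above 1 FPKM in all 8 libraries. Acta2 exceeded 1 in 4 libraries, Col1a1 in 3 and Des in 1, the first f/f HFD library. Col1a1 entered the tests through the second f/f CD library and both LKO CD libraries, Acta2 through the second f/f CD, the second LKO CD and both f/f HFD libraries, and Des through the first f/f HFD library alone, so their filter depended on the groups in which they were high. Timp1 and Lox did not exceed 1 in any library and were not tested, which left 8 of 10.

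**Figure D1:**
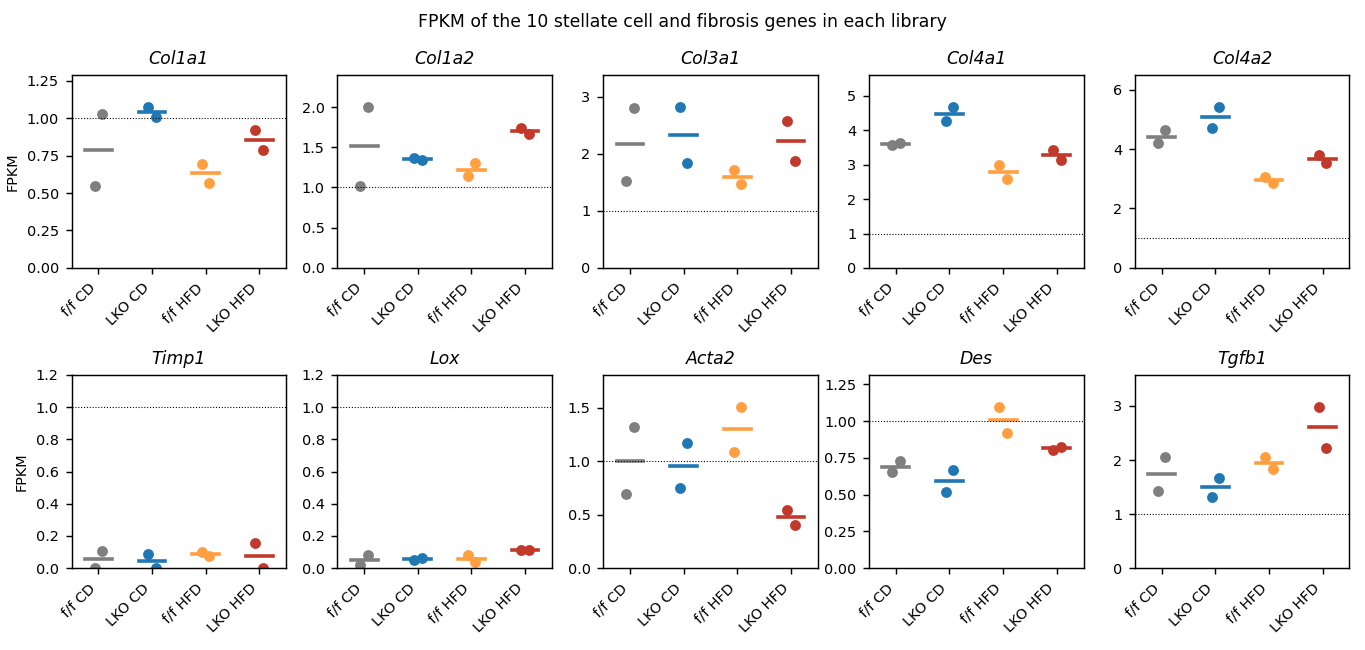
FPKM of each of the 10 genes (vertical axis from 0, a scale of its own per gene) in the 8 libraries, by group; points are libraries, bars are group means of 2 and the dotted line marks 1 FPKM. Timp1 and Lox lie far below the line, Col4a1 and Col4a2 are lower in the HFD groups, and Acta2 is lowest in LKO HFD (0.405 and 0.543 FPKM).

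Col4a1 and Col4a2 encode the chains of the common type IV collagen trimer and are neighbours. On GRCm38, Col4a1 is transcribed from the minus strand of chromosome 8 (11198423 to 11312826) and Col4a2 from the plus strand (11312805 to 11449287), and they share 22 exonic bases at their 5′ ends. The library kit did not keep strand, so reads within those bases cannot be assigned to a gene by strand, out of coding transcripts of 6615 and 6450 bases. Their promoter windows, 250 bases before to 50 after the start site, are shown because the start sites lie 21 bases apart and the results below turn on both genes. The sequences are from RefSeq (GRCm38.p6), each 5′ to 3′ on its gene's strand, and capitals mark the 78 bases that lie in both windows (chr8:11312777-11312854).
Col4a1 (chr8:11312777-11313076, minus strand): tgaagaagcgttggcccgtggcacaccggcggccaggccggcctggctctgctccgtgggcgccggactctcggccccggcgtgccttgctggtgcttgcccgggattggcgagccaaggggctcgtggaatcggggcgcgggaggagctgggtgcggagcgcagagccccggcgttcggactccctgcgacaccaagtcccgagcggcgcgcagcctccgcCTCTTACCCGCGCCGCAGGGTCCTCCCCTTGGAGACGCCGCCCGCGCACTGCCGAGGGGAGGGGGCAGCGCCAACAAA
Col4a2 (chr8:11312555-11312854, plus strand): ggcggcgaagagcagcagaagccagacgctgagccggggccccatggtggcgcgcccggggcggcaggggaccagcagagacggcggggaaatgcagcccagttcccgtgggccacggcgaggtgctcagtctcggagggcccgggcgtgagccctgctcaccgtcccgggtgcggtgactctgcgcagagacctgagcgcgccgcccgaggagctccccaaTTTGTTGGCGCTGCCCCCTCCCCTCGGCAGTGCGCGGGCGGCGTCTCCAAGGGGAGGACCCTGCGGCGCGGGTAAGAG

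The capitals of the first window are the reverse complement of the capitals of the second. They hold the letters GGGCGG at +8 to +13 from the Col4a2 start, read as CCGCCC at +10 to +15 from the Col4a1 start, and GGGCGG occurs on either strand in 35.7% of all 32851 windows of this length. Neither window held TATAAA, which 13.6% of all windows hold. A match here is a description of letters and not of a bound site.

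Both type IV collagen genes were lower on HFD, and both were higher in the LKO-labelled libraries on either diet. Col4a1 was at 3.57 and 3.63 FPKM in f/f CD, 4.28 and 4.68 in LKO CD, 2.98 and 2.58 in f/f HFD and 3.44 and 3.14 in LKO HFD. Col4a2 was at 4.19 and 4.63 in f/f CD, 4.71 and 5.42 in LKO CD, 3.07 and 2.85 in f/f HFD and 3.79 and 3.52 in LKO HFD. All 4 HFD libraries lay below all 4 CD libraries for each gene, and at each diet the LKO-labelled libraries lay above the f/f-labelled ones. Of all tested genes, 16.5% separated by diet in either direction, 43.3% by genotype on CD and 42.1% by genotype on HFD.

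Averaged over genotypes, Col4a2 fell on HFD to 3.31 ± 0.427 FPKM from 4.74 ± 0.510 (SD, n = 4), a log2 fold change of -0.38 ± 0.069 (SE; limma adjusted p = 0.0213). Col4a1 fell to 3.04 ± 0.357 from 4.04 ± 0.538 FPKM, with a log2 fold change of -0.29 ± 0.066 (limma adjusted p = 0.0414). These 2 of the 8 tested genes were called, against 9.89% of all tested genes called in either direction and 4.86% called lower. Of all calls 50.9% were higher, and 36.1% without normalization across libraries, where both collagens were still lower (log2 -0.41 and -0.32). As counts, neighbours with starts this close are not independent. The Col4a1 call was lost when any 1 of the 8 libraries was left out (limma adjusted p 0.0666 to 0.123, log2 fold change -0.32 to -0.26), in the fit blocked on replicate number (0.0662) and without the filter on low values (0.0902). The Col4a2 call held under the block (limma adjusted p = 0.0377) and without the first LKO CD library (0.0343), and was lost without each of the other 7 libraries (up to 0.0833) and without the filter (0.0502), with log2 fold changes between -0.43 and -0.34.

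Within each genotype neither change passed the adjusted threshold. In f/f livers the log2 fold change on HFD was -0.42 ± 0.097 for Col4a2 (limma adjusted p = 0.0908) and -0.26 ± 0.094 for Col4a1 (adjusted p = 0.203). In LKO-labelled livers it was -0.34 ± 0.097 for Col4a2 (limma adjusted p = 0.112) and -0.32 ± 0.094 for Col4a1 (adjusted p = 0.120). The diet change did not differ detectably between genotypes: the difference was 0.08 for Col4a2 (95% interval -0.25 to 0.41, limma unadjusted p = 0.575) and -0.06 for Col4a1 (-0.37 to 0.26, unadjusted p = 0.683).

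By genotype, Col4a1 was 1.25-fold higher in LKO-labelled livers on CD (log2 0.25 ± 0.094, limma unadjusted p = 0.0340, adjusted p = 0.356) and 1.18-fold higher on HFD (log2 0.19 ± 0.094, unadjusted p = 0.0814). Col4a2 was 1.15-fold higher on CD (log2 0.15 ± 0.097, limma unadjusted p = 0.156) and 1.24-fold higher on HFD (log2 0.24 ± 0.097, unadjusted p = 0.0467, adjusted p = 0.510). Averaged over diets the log2 difference was 0.22 ± 0.066 for Col4a1 (limma adjusted p = 0.226) and 0.20 ± 0.069 for Col4a2 (adjusted p = 0.285). These genotype differences did not pass the adjusted test, by which 0.103% of all genes were called. At an unadjusted p under 0.05 the average over diets gave 2 of the 8 genes, beside 13.5% of all tested genes in either direction.

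The ratio of Col4a2 to Col4a1 FPKM stayed between 1.03 and 1.28 over the 8 libraries, with a median of 1.11. On the normalized log2 scale, Col4a2 was the fifth most similar of the tested genes above a mean of 1 FPKM to Col4a1 (Pearson r = 0.959 over 8 libraries), after 9530068E07Rik (0.990), Dffa (0.971), Marc1 (0.968) and Spryd3 (0.960). These are descriptions over libraries that share 4 groups. Des moved the other way (r = -0.80 with Col4a1).

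**Figure D2:**
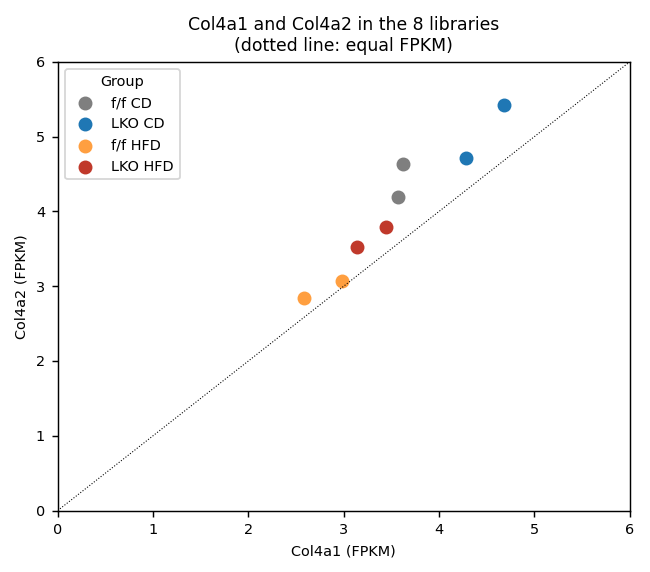
FPKM of Col4a1 (horizontal) against Col4a2 (vertical) in the 8 libraries, coloured by group, with the line of equal FPKM dotted. Points follow the line with Col4a2 slightly higher, and the 4 HFD libraries lie below and to the left of the 4 CD libraries.

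The fibrillar collagen genes, which encode the chains of type I collagen (Col1a1, Col1a2) and type III collagen (Col3a1) of scar and interstitial matrix, showed no change past the test in any comparison. Col1a1 (chromosome 11, 94936224 to 94953042) was at 0.548 and 1.03 FPKM in f/f CD, 1.08 and 1.01 in LKO CD, 0.695 and 0.570 in f/f HFD and 0.921 and 0.785 in LKO HFD. The second f/f CD library was well above its partner, so that the f/f CD group spanned the values of every other group except the top of LKO CD. The same library was the higher of its pair for Col1a2 (chromosome 6, 4504814 to 4541544), which was at 1.02 and 2.00 FPKM in f/f CD, 1.37 and 1.34 in LKO CD, 1.14 and 1.30 in f/f HFD and 1.74 and 1.66 in LKO HFD. Col3a1 (chromosome 1, 45311538 to 45349706) was at 1.53 and 2.80 in f/f CD, 2.82 and 1.84 in LKO CD, 1.72 and 1.47 in f/f HFD and 2.57 and 1.87 in LKO HFD.

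On HFD, both LKO-labelled libraries lay above both f/f-labelled libraries for all 3 genes. Of all tested genes, 42.1% separated by genotype on HFD in either direction. Col1a1 was 1.35-fold, Col1a2 1.39-fold and Col3a1 1.39-fold higher in FPKM, with log2 fold changes of 0.17 ± 0.17, 0.28 ± 0.19 and 0.30 ± 0.23 (SE; limma unadjusted p 0.341, 0.184 and 0.226). On CD the log2 differences between genotypes were 0.19 ± 0.17 for Col1a1, -0.09 ± 0.19 for Col1a2 and 0.06 ± 0.23 for Col3a1, and libraries overlapped for each gene. Averaged over genotypes, the diet changed Col1a1 by -0.13 ± 0.12, Col1a2 by 0.03 ± 0.13 and Col3a1 by -0.14 ± 0.16 on the log2 scale (limma unadjusted p 0.313, 0.851 and 0.424). The 95% intervals were -0.42 to 0.15, -0.29 to 0.34 and -0.52 to 0.25, so that all 3 reached down to a fall of 0.29, the size measured for Col4a1.

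The 2 chains of type I collagen did not keep a fixed ratio. The ratio of Col1a1 to Col1a2 FPKM ran from 0.437 to 0.787, and their Pearson r over the 8 libraries was 0.604, which ranked Col1a2 only 625th among genes like Col1a1. Col3a1 ranked 58th (r = 0.821), and the most similar genes were Alg10b (0.959), Tcf12 (0.921), Fam204a (0.919), the gene ENSMUSG00000052429 (0.917) and Ubqln2 (0.916). By a rough estimate of what 1 fragment is worth, Col1a1 rested on 49 to 96 fragments per library and Col4a2 on 268 to 476.

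Timp1, the secreted inhibitor of matrix metalloproteinases that rises in fibrotic liver, was close to absent in these libraries. It was listed at 0 and 0.109 FPKM in f/f CD, 0.0898 and 0 in LKO CD, 0.101 and 0.0784 in f/f HFD and 0.157 and 0 in LKO HFD, at most about 2.3 fragments in a library by the same estimate. No order of the groups can be read from values of this size. The gene lies on the X chromosome (20870166 to 20874735) inside an intron of Syn1 on the opposite strand and shares no exonic base with it.

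Lox, lysyl oxidase, which cross-links collagen and elastin, was also below 1 FPKM throughout. It was at 0.0185 and 0.0841 FPKM in f/f CD, 0.0533 and 0.0622 in LKO CD, 0.0802 and 0.0357 in f/f HFD and 0.112 and 0.114 in LKO HFD. The LKO HFD libraries were the highest pair, 1.95-fold above f/f HFD, on about 1.3 to 8.9 fragments per library. In a fit without the filter on low values the log2 difference was 0.08 ± 0.042 (limma unadjusted p = 0.111). Lox lies on chromosome 18 (52516067 to 52529867).

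Acta2, smooth muscle actin, the usual marker of activated stellate cells and also a gene of vascular smooth muscle, was lowest in the LKO HFD libraries. It was at 0.692 and 1.32 FPKM in f/f CD, 0.749 and 1.17 in LKO CD, 1.09 and 1.51 in f/f HFD and 0.543 and 0.405 in LKO HFD. Both LKO HFD libraries lay below the other 6. On HFD, Acta2 was 2.74-fold lower in FPKM in LKO-labelled than in f/f-labelled livers, 0.474 ± 0.0973 against 1.30 ± 0.295 (SD, n = 2), a log2 difference of -0.63 ± 0.21 (SE). The limma unadjusted p was 0.0204 and the adjusted p was 0.398, so that the difference was not called. Acta2 was above 1 FPKM in both f/f HFD libraries and in neither LKO HFD library, so its place among the tested genes rested in part on the group in which it was high, and it was not tested where FPKM above 1 was required in all libraries. On this comparison 2 of the 8 genes, Acta2 and Col4a2, reached an unadjusted p under 0.05, in opposite directions, beside 9.58% of all tested genes.

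On CD the genotypes overlapped for Acta2 (log2 -0.05 ± 0.21, limma unadjusted p = 0.834). The test of the difference between diets gave -0.59 ± 0.30 (limma unadjusted p = 0.0903, adjusted p = 0.651), and no gene of the 8 reached an unadjusted p under 0.05 there, beside 8.35% of all tested genes. In LKO-labelled livers HFD values were 2.02-fold below CD (log2 -0.37 ± 0.21, limma unadjusted p = 0.120), and in f/f livers the groups overlapped (log2 0.21 ± 0.21; without the first f/f CD library it was -0.01). An estimated 13 to 48 fragments lay behind each Acta2 value.

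The Acta2 promoter is shown because the gene is the marker by which activated stellate cells are recognised and known smooth muscle elements lie before its start. The window (RefSeq, GRCm38.p6, minus strand, 250 bases before to 50 after the start site) has in capitals the 2 stretches that match a relaxed CArG box, the class of site that serum response factor reads: CC, then 6 bases of which at least 5 are A or T, then GG. They lie at -84 to -75 and at -34 to -25 from the RefSeq start used here (34255373). The GENCODE gene on this minus strand reaches 34255590, so these positions hold for the RefSeq start only.
Acta2 (chr19:34255324-34255623, minus strand): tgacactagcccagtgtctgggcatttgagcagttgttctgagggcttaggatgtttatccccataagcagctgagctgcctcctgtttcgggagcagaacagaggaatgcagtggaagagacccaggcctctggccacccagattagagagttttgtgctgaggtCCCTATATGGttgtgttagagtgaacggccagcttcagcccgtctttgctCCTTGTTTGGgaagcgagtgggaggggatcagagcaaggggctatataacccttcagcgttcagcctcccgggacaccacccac

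The relaxed form was searched with knowledge of this promoter, so its presence here is no finding. It was in 9.98% of all windows, both strands searched, and among the 8 windows of the listed genes in those of Acta2 and Col1a2. The strict CArG consensus was in none of the 8 windows and in 1.63% of all windows. AGGTCA, the core half-site of receptors of the ROR type, was in none of the 8 windows and in 16.3% of all windows. Col1a1 and Lox had no promoter entry.

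Des, desmin, the intermediate filament of quiescent rodent stellate cells and of muscle, stood at 0.652 and 0.732 FPKM in f/f CD, 0.517 and 0.669 in LKO CD, 1.10 and 0.920 in f/f HFD and 0.805 and 0.827 in LKO HFD. Des was above 1 FPKM in the first f/f HFD library alone. Its place among the tested genes thus rested on a group in which it was high. All 4 HFD libraries lay above all 4 CD libraries, a separation found in 16.5% of tested genes in either direction. The mean was 0.912 ± 0.133 against 0.642 ± 0.0905 FPKM (SD, n = 4), 1.42-fold higher, with a log2 difference of 0.22 ± 0.10 (SE; limma unadjusted p = 0.0634, adjusted p = 0.205), which did not pass. Between genotypes the log2 difference was -0.12 ± 0.14 on CD and -0.16 ± 0.14 on HFD. Des and Acta2 therefore did not take the same order over the groups: LKO HFD was lowest for Acta2 and second highest for Des. Their Pearson r over the 8 libraries was 0.331. The closest genes to Acta2 were Dmac1 (0.954), Cxxc1 (0.947), Brms1l (0.942), Copa (0.941) and Slc39a14 (0.912), and no other of the 10 genes was among them. Des lies on chromosome 1 (75360329 to 75368579), with the antisense gene Gm15179, listed at 0 in every library, over 220 of its exonic bases.

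Tgfb1, which encodes the main ligand that drives collagen synthesis in stellate cells and is made by many liver cell types, was at 1.44 and 2.06 FPKM in f/f CD, 1.32 and 1.68 in LKO CD, 2.06 and 1.83 in f/f HFD and 2.98 and 2.23 in LKO HFD. The LKO HFD libraries were the highest pair, and f/f CD overlapped both remaining groups. In LKO-labelled livers HFD values were 1.74-fold above CD, 2.60 ± 0.533 against 1.497 ± 0.252 FPKM (SD, n = 2), a log2 change of 0.55 ± 0.16 (SE; limma unadjusted p = 0.0131, adjusted p = 0.124). In f/f livers the change was 0.10 ± 0.16 (limma unadjusted p = 0.568), and the test of the difference between genotypes gave 0.45 ± 0.23 (unadjusted p = 0.0958, adjusted p = 0.651). Averaged over genotypes Tgfb1 was 1.40-fold higher on HFD (log2 0.32 ± 0.12, limma adjusted p = 0.128). It is on chromosome 7 (25687002 to 25705077).

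**Figure D3:**
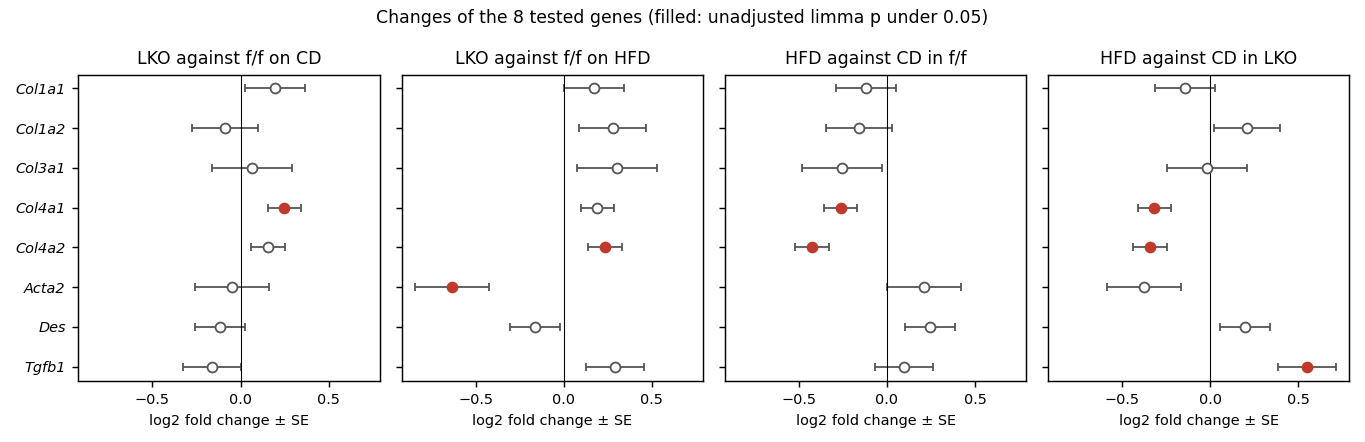
Log2 fold changes (horizontal axis, ± SE of the limma fit) of the 8 tested genes for LKO against f/f on each diet and HFD against CD in each genotype; filled points have an unadjusted p under 0.05. Col4a1 and Col4a2 lie left of 0 in both diet panels, Acta2 lies at -0.63 for LKO against f/f on HFD, and Tgfb1 at 0.55 for HFD against CD in LKO.

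Counted over the 8 tested genes, no gene passed the adjusted test in any of the 4 simple comparisons, in which 0.0172% (genotype on CD), 0.043% (genotype on HFD), 1.33% (diet in f/f) and 3.02% (diet in LKO) of all tested genes were called, or in the difference of the genotype change between diets (0.0344%). At an unadjusted p under 0.05, LKO against f/f gave 1 gene on CD (Col4a1, higher), beside 12.3% of all tested genes, and the 2 genes named above on HFD. HFD against CD gave 2 genes in f/f (Col4a1 and Col4a2, lower), beside 19.2%, and 3 in LKO (these 2 lower and Tgfb1 higher), beside 21.3%. The median log2 fold change of the 8 genes was 0.01 for genotype on CD, 0.21 for genotype on HFD, -0.14 for diet in f/f and -0.08 for diet in LKO, while the medians over all tested genes lay between -0.00 and 0.01. Libraries of the groups compared did not overlap for 2 of the 8 genes by genotype on CD (43.3% of all tested genes), 8 on HFD (42.1%), 3 by diet in f/f (49.9%) and 7 by diet in LKO (53.2%). These comparisons share groups, each control group serving a pair of them. On HFD, Acta2 and Des exceeded 1 FPKM in f/f-labelled libraries only, so their place among the 8 rested partly or wholly on that group. In the average over genotypes the diet comparison gave Tgfb1 higher and the type IV collagens lower at an unadjusted p under 0.05, beside 27.9%.

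The hepatic stellate cell markers did not follow the type IV collagens. Of 15 markers listed, 12 were tested, and on HFD 10 were higher and 0 lower at an unadjusted p under 0.05 in the average over genotypes, beside 14.9% and 13.0% of all tested genes. The median log2 fold change was 0.47, against 0.01 over all tested genes. By the adjusted test 5 of the 12 rose, beside 9.89% of all tested genes called in either direction: Ecm1, Dcn, Reln, Vipr1 and Colec11. Colec11, and below Lrat, Hand2 and Postn, are named after their values were seen. Dcn, the small proteoglycan decorin, was at 26.4 to 45.3 FPKM in the 4 CD libraries and at 52.5 to 72.2 in the 4 HFD libraries, a log2 change of 0.78 ± 0.15 (SE; limma adjusted p = 0.0283).

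These calls depended on the libraries used. The Dcn, Ecm1, Reln and Colec11 calls were kept only without the first LKO CD library (adjusted p 0.0319 to 0.0439), and the Vipr1 call only without the second f/f HFD library (0.0475). With 1 library left out, the count at an unadjusted p under 0.05 was 8 to 11 higher and 0 lower. Lrat, which makes retinyl esters and defines quiescent stellate cells, was at 1.67 to 2.73 FPKM on CD and 2.46 to 4.00 on HFD (log2 0.45 ± 0.14, limma adjusted p = 0.0894). The summed FPKM of the 15 markers was 74.5 to 134 FPKM in the CD libraries and 157 to 207 in the HFD libraries, mostly Ecm1 and Dcn, and the part of these cells in the results for the 10 genes was not tested.

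On CD the same markers were lower in LKO-labelled livers: 4 of 12 at an unadjusted p under 0.05 (Cygb, Gdf2, Hand2 and Ecm1), none higher and none by the adjusted test, beside 6.12% of all tested genes lower. The median was -0.31, and the count was 1 without the second LKO CD library and 1 without the first f/f CD library. Cygb, cytoglobin of stellate cells, was at 1.76 and 1.67 FPKM in f/f CD and 1.11 and 0.881 in LKO CD (log2 -0.47 ± 0.12, limma adjusted p = 0.243). On HFD 1 of the 12 was lower at an unadjusted p under 0.05, beside 9.58% of all tested genes in either direction. It was Cygb (log2 -0.32 ± 0.12, limma adjusted p = 0.468).

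In the TGF-β pathway 20 of 29 listed genes were tested. Tgfbr2, the receptor that binds the Tgfb1 ligand, was the only one called in the diet average, 1 of 20 beside 9.89% of all tested genes. It was at 6.77 to 8.70 FPKM on CD and between 3.502 and 4.39 on HFD, a log2 change of -0.81 ± 0.098 (SE; limma adjusted p = 0.00775), and it was also called within f/f (-0.88, adjusted p = 0.0439) and LKO (-0.75, adjusted p = 0.0446). The averaged call was kept whichever library was left out (adjusted p 0.0247 to 0.0412), while both calls within a genotype were lost whichever library was left out. Ligand and receptor thus lay on opposite sides of 0 in the diet average, with the receptor past the test and Tgfb1 not.

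Among enzymes that modify collagen, 9 of 19 were tested, with 1 called higher and 1 lower in the diet average, beside 9.89% of all tested genes called in either direction. P4ha2, a prolyl 4-hydroxylase subunit, fell from 3.23 to 3.54 FPKM on CD to 2.02 to 2.22 on HFD (log2 -0.47 ± 0.061, limma adjusted p = 0.00901), a call kept whichever library was left out. Bmp1, which trims procollagen, rose (log2 0.24 ± 0.053, limma adjusted p = 0.0402), a call lost whichever library was left out. Of matrix proteases and their inhibitors, the group of Timp1, 9 of 20 were tested. In the diet average 1 was higher and 3 lower at an unadjusted p under 0.05, beside 14.9% and 13.0% of all tested genes, with a median log2 fold change of -0.02. Mmp14, a membrane metalloproteinase, was the 1 called there, beside 9.89% of all tested genes. It was higher (log2 0.24 ± 0.053, limma adjusted p = 0.0361), a call lost whichever library was left out. In the list of other collagens, 7 of 14 were tested and Col27a1 alone was called in the diet average, beside 9.89% of all tested genes. It was lower (log2 -0.67 ± 0.12, limma adjusted p = 0.0231), a call kept only without the first LKO CD or the second f/f CD library. Col15a1, in the same list, was at 2.32 and 2.01 FPKM in LKO CD and 1.05 and 0.889 in LKO HFD. It was not called, and its f/f libraries overlapped between diets.

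**Figure D4:**
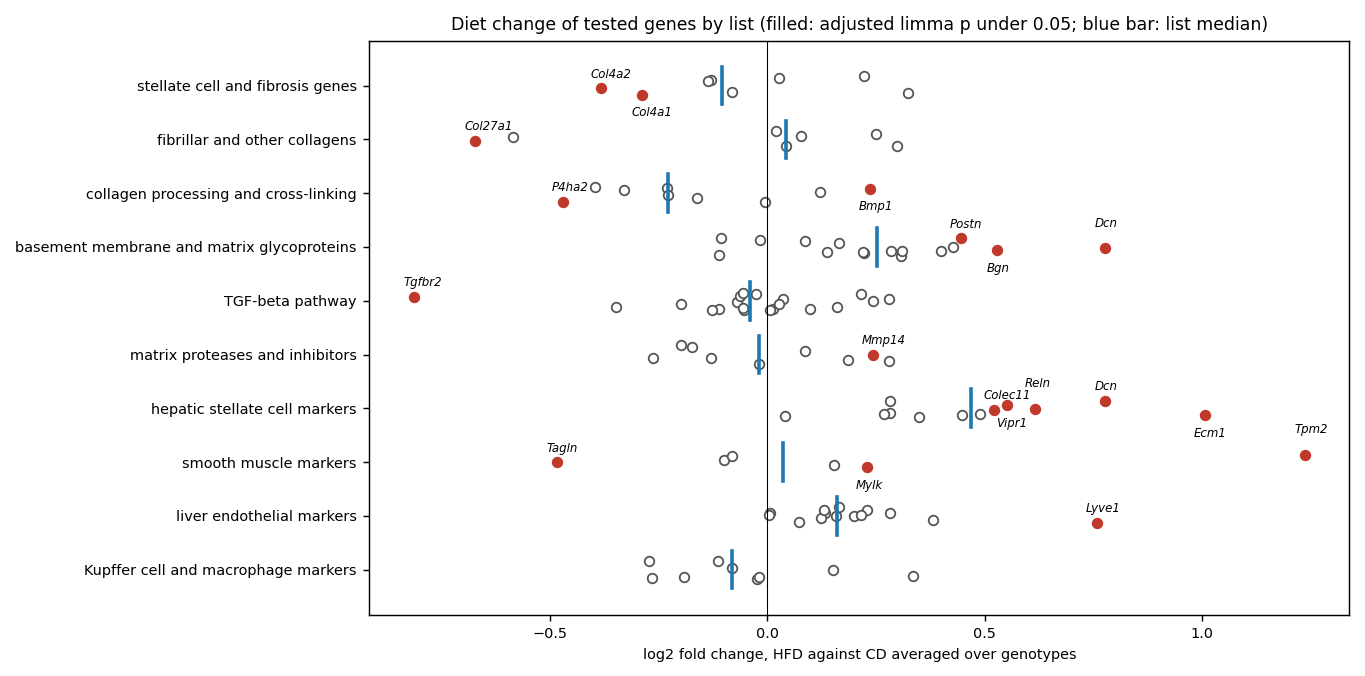
Log2 fold change for HFD against CD averaged over genotypes (horizontal axis) of each tested gene, grouped by list (vertical axis); filled points have an adjusted limma p under 0.05 and blue bars are list medians. The median of the 8 genes lies at -0.11 and that of the stellate cell markers at 0.47.

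In the list of basement membrane and matrix glycoprotein genes, which holds no collagen, none fell with Col4a1 and Col4a2 at an unadjusted p under 0.05 in the diet average. Of 16 tested of 30, 6 were higher and 0 lower at that threshold, beside 14.9% and 13.0% of all tested genes. Dcn, which is also a listed stellate cell marker, Bgn and Postn rose by the adjusted test, beside 9.89% of all tested genes called in either direction. No tested laminin or nidogen gene was called, and Nid2, Lama2, Lama5 and Lamb2 were not tested. With 1 library left out, 5 to 10 were higher, the Dcn and Bgn calls were kept only without the first LKO CD library and the Postn call was lost whichever library was left out. Smooth muscle genes, which share Acta2 with stellate cells, moved in both directions. Of 12 listed, 6 were tested. In the diet average 2 were called higher and 1 lower, beside 9.89% of all tested genes called in either direction. The median log2 fold change of the 6 was 0.03. Tpm2, a tropomyosin, was at 3.58 to 5.50 FPKM on CD and 6.81 to 18.5 on HFD (log2 1.24 ± 0.13, limma adjusted p = 0.00606). Tagln fell (log2 -0.48 ± 0.091, limma adjusted p = 0.0256) and Mylk rose (0.23 ± 0.050, adjusted p = 0.0359). The Tpm2 call was kept whichever library was left out, the Tagln call only without the second f/f HFD library and the Mylk call was lost whichever library was left out. On HFD, where Acta2 was lowest in LKO-labelled livers, Myl9 was lower (log2 -0.45 ± 0.18, limma adjusted p = 0.490) and Tpm2 higher (0.94 ± 0.19, adjusted p = 0.228) without passing the adjusted test.

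The summed FPKM of 14 liver endothelial markers was 104 to 132 in the CD libraries and 120 to 152 in the HFD libraries. Of the 14, Lyve1 alone was called in the diet average, beside 9.89% of all tested genes. It was higher (log2 0.76 ± 0.14, limma adjusted p = 0.0213), a call kept only without the second f/f CD library. The 11 Kupffer cell and macrophage markers summed to 103 to 142 FPKM on CD, 83.2 to 101 in f/f HFD and 98.6 to 150.2 in LKO HFD. On HFD, 3 of 9 tested were higher in LKO-labelled livers at an unadjusted p under 0.05 (Timd4, Clec4f and Cd68), beside 5.46% of tested genes, and none by the adjusted test. That count was 0 without the first LKO HFD or the second f/f HFD library and 7 without the second LKO HFD library, with medians of 0.14 to 0.63 over the 8 fits with 1 library left out. The 9 cholangiocyte markers summed to 18.1 to 31.7 FPKM over all libraries. The 13 portal fibroblast and mesothelial markers were at 5.96 to 8.78, 2 of them tested, and the PDGF axis gave 0 of 3 tested genes in any comparison at an unadjusted p under 0.05. Of 10 hepatocyte markers, all tested, 3 were higher and 3 lower on HFD at an unadjusted p under 0.05 in the average over genotypes, beside 14.9% and 13.0% of all tested genes. The 10 include albumin, listed at 0 in 4 libraries. By the adjusted test Ttr, Apob and Hnf4a were called higher and Tat, a tyrosine aminotransferase, lower (log2 -1.14 ± 0.12, limma adjusted p = 0.00606). Beside these, 9.89% of all tested genes were called in either direction. The Ttr call was on the quantile-normalized scale, and its FPKM overlapped between diets, at 3994 to 4541 on CD and 4034 to 4302 on HFD. The Tat call was kept whichever library was left out, the Ttr call only without the first LKO CD library, and the Apob and Hnf4a calls were lost whichever library was left out. Apob is named after its values were seen. The part of these cells in the values of the 10 genes was not tested.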

How the data were processed

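Liver mRNA libraries were made with a poly(A) kit that does not keep strand and read on a HiSeq 2500. The authors trimmed reads with cutadapt 1.0, aligned them to GRCm38 with TopHat2 2.0.7 and ran Cufflinks. The file the authors deposited lists FPKM per Ensembl gene on a linear scale. The annotation release is not given in the sources used here, and 36341 of 38283 identifiers matched a symbol in GENCODE M21. FPKM hold no read counts, so count tests were not run, and depth is known only roughly: the value of 1 fragment was estimated from the lowest FPKM of 190 to 287 genes per library.

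Genes above 1 FPKM in at least 1 library were tested on log2(FPKM + 1), quantile normalized, with limma 3.58.1 in R 4.3.3: 1 fit for 4 groups, a mean-variance trend, 4 residual degrees of freedom plus 2.80 from moderation, and Benjamini-Hochberg adjustment over 11634 genes in each of 7 comparisons, all two-sided. The study's own permutation procedure was not used. With 2 libraries per group, p-values measure the spread between pools of 2 mice. Members and gene lists were chosen with earlier results of these data known. The genes named are the 10 listed ones, Rora, from each list up to 3 genes per simple comparison with the largest change among those with unadjusted p under 0.05 and no overlap of libraries, the 3 most abundant of each marker list, and the 5 genes most like Col1a1, Acta2 and Col4a1; 5 others are named in the text as chosen after their values were seen. The marker lists were smooth muscle, portal fibroblast and mesothelial, endothelial, Kupffer, cholangiocyte, hepatocyte and stellate cell; 1 marker of the last list is not reported here and is left out of its counts, medians and sums. Alternatives were other normalizations, pseudocounts and filters, no trend, the groups compared alone, a replicate block and each library left out. Figures were drawn with matplotlib.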

Additional observations from a re-analysis of the deposited data

Results flagged for a closer look

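For 6 genes of the lists around the 10, the libraries of 1 comparison lay wholly on 1 side in 1 condition and wholly on the other side in the second. This was read from the FPKM of 2 against 2 libraries, and the interaction of the limma fit is given beside each as the log2 difference of the 2 changes. None of the interactions passed the adjusted test. By genotype, P4ha1, a prolyl 4-hydroxylase subunit, was lower in LKO-labelled livers on CD and higher on HFD (difference 0.54, limma adjusted p = 0.558). Timd4, a receptor of resident Kupffer cells, did the same (0.73, adjusted p = 0.517). Sparc, a matrix glycoprotein, was lower on CD and higher on HFD by genotype and, in the same interaction, lower on HFD in f/f and higher in LKO (0.43, limma adjusted p = 0.558). Mmp14, a membrane metalloproteinase, was higher on CD and lower on HFD (-0.25, limma adjusted p = 0.594), and Mylk, the myosin light chain kinase, likewise (-0.25, adjusted p = 0.583). Ttr, a hepatocyte gene, was higher on HFD in f/f and lower in LKO in FPKM (-0.067, limma adjusted p = 0.918), although the quantile-normalized change was above 0 in both. None of the 10 listed genes had such a reversal.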

How the results depend on the processing

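Of 1507 values of single genes recomputed under the alternatives, 1328 kept direction and side of the adjusted threshold, 156 lost it, 18 gained it and 5 turned sign. All 5 were uncalled in the reported fit. They were Ttr for diet in LKO (-0.060 without normalization, -0.032 with libraries centred on their median) and Acta2: by genotype on CD, 0.18 without the second f/f CD library and 0.12 without the first LKO CD library, in a range of -0.27 to 0.18, and by diet in f/f, -0.012 without the first f/f CD library, in a range up to 0.44. Of the medians of the 8 genes, 105 of 109 alternatives moved by less than the spread between replicates. With FPKM above 1 required in all libraries the median for the genotype-by-diet difference was 0.23. With 1 library left out, the median ran from -0.19 to 0.20 for genotype on CD and from -0.30 to 0.10 for diet in f/f, the lowest value without the first and the highest without the second f/f CD library in both. The cause was not tested.

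Counts of the 8 genes changed as follows. In the diet average, 0 passed the adjusted test without a filter, 1 with the replicate block, and 0 to 1 with 1 library left out. At an unadjusted p under 0.05, genotype on CD gave 0 with only the groups compared (0 to 1 with 1 library left out), and genotype on HFD gave 0 with FPKM above 1 in all libraries, 1 without a filter, 1 with the replicate block and 0 to 2 with 1 library left out. Left-out libraries gave 0 to 2 for the genotype-by-diet difference, 1 to 3 for diet in f/f, 1 to 3 for diet in LKO and 1 to 4 for the genotype average.

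Calls over all genes (adjusted p under 0.05) were 2 for genotype on CD, and 1 with a pseudocount of 0.1, 7 with FPKM above 1 in all libraries, 10 without a filter, 4 without the trend, 0 with only the groups compared and 2 to 20 with 1 library left out. Genotype on HFD gave 5 calls, and 24 without a filter and 4 to 25 with 1 library left out. The genotype-by-diet difference gave 4, and 2 with a pseudocount of 0.1, 0 with FPKM above 1 in all libraries, 19 without a filter and 11 to 21 with 1 library left out. Diet in f/f gave 155, and 323 with FPKM above 1 in all libraries, 46 without a filter, 34 with the replicate block, 42 without the trend, 5 with only the groups compared and 12 to 34 with 1 library left out. Diet in LKO gave 351, and 570, 135, 223, 229 and 0 in the same order, and 19 to 79 with 1 library left out. The genotype average gave 12, and 7 without normalization, 50 with FPKM above 1 in all libraries, 28 without a filter and 12 to 27 with 1 library left out. The diet average gave 1151, and 704 without a filter and 335 to 728 with 1 library left out.

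Libraries share replicate numbers across groups but come from different mice. Deviations of same-numbered libraries correlated at a Pearson r of -0.00 to 0.15 (Spearman -0.07 to 0.03), so the numbers were not taken as pairs, and a call lost under the replicate block is not read as a smaller effect. Leaving out libraries for the counts of the marker and pathway lists was added after seeing the data. Depth limits Timp1, Lox, Acta2 and Des most.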
